A study of Mus musculus with 8 samples.

Results

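The genes described here are the ligands, receptors and latent binding proteins of transforming growth factor β (TGF-β), chosen by symbol as Tgfb1, Tgfb2, Tgfb3, Tgfbr1, Tgfbr2, Tgfbr3, Ltbp1, Ltbp2, Ltbp3 and Ltbp4. All 10 were found, once each, among the 37979 genes of the expression table. RNA came from pericytes (PDGFRβ+tdTomato- cells) and SMCs (smooth muscle cells, PDGFRβ+tdTomato+ cells) sorted from the hindlimb of 3 to 4 month old Ai14+/-;SM22α-Cre+ mice of both sexes. Their Cre is expressed from the SM22α promoter and turns on red tdTomato for good, so a tdTomato+ cell has expressed SM22α at some time, and both groups carry the same alleles. A pericyte that has expressed SM22α, as near arterioles, would therefore fall among the SMCs. The gate also asked for low DAPI and no CD45 stain. For CD31 the sources differ, since the text says that CD31+ cells were excluded and a legend writes both populations as CD31+. There were 4 pericyte and 4 SMC libraries, each of about 60000 cells pooled from more than 1 sort, and the labels give 1 batch for all 8.

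TGF-β is made as a dimer of a long precursor. The propeptide is cut from the mature ligand in the secretory pathway but stays wrapped around it, which keeps the ligand latent. A latent TGF-β binding protein (LTBP), linked to the propeptide by disulphide bonds, carries this latent complex to fibrillin microfibrils in the matrix. Integrins that grip an arginine-glycine-aspartate (RGD) motif in the propeptide, and several proteases, can free the ligand. The free ligand binds the type II receptor, which recruits and phosphorylates the type I receptor, and SMAD proteins carry the signal to the nucleus. In the vessel wall the pathway is known for mural cell differentiation and matrix production.

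The ligand genes differ in their coding sequence at the integrin site, which is why this site is shown. In NCBI Build 37 (GENCODE version M1 transcripts), the longest coding transcripts of Tgfb1 and Tgfb3 each hold 1 in-frame run of arginine, glycine and aspartate codons, and that of Tgfb2 holds 0. The stretches below run 5′ to 3′ in coding direction, with these codons in capitals, and for Tgfb2 the capitals mark the codons that align with those of Tgfb3.
Tgfb1: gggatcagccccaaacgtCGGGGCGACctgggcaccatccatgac
Tgfb2: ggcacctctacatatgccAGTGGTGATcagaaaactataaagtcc
Tgfb3: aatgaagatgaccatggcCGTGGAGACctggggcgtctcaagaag
The Tgfb1 stretch is split over 2 exons within chr7:26482014-26482187 on the plus strand, with codons 244 to 246 in capitals. The Tgfb2 stretch lies in 1 exon at chr1:188454614-188454658 on the minus strand, with codons 261 to 263 in capitals. The Tgfb3 stretch lies in 1 exon at chr12:87403097-87403141 on the minus strand, also with codons 261 to 263 in capitals.

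All ligand genes carry a run of basic codons just before the mature ligand, where the precursor is cut. The 4 codons before the mature ligand are in capitals here.
Tgfb1: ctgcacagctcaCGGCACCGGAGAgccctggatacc
Tgfb2: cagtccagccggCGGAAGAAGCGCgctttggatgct
Tgfb3: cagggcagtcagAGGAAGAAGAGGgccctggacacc
These stretches lie in coding exons at chr7:26482242-26482277 (plus strand), chr1:188454503-188454538 (minus strand) and chr12:87402992-87403027 (minus strand). Over the 336 bases that code for the mature ligand, Tgfb1 was 68.8% identical to Tgfb2 and 73.5% identical to Tgfb3, and Tgfb2 was 70.8% identical to Tgfb3.

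The authors deposited FPKM (read fragments scaled by transcript length and by library size), so levels of different genes can be compared per length, but the number of reads behind a value is unknown. Relative depth, read from the lowest FPKM values, differed by at most 1.23 times between libraries. Pericyte replicate 2 stood apart in its FPKM sum, at 1190435 against 656405 to 782014 in the other 7 libraries. Genes were compared by limma on log2(FPKM + 1) over the 27414 genes above 0 in at least 1 library, with Benjamini-Hochberg adjustment (q value). A gene was called at a q value below 0.05, and log2 fold changes are given as pericytes minus SMCs, so a negative value means higher in SMCs. At low FPKM this scale shrinks differences. Nothing says which sorts or mice went into which library, so the q values measure the spread between these libraries.

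The ligand genes Tgfb2 and Tgfb3 and most of the LTBP genes were higher in SMCs, by 3.39 to 4.64 times in mean FPKM, while no receptor gene was called, Tgfbr3 falling just short. Of the 10 genes, 5 were called higher in SMCs (Tgfb2, Tgfb3, Ltbp1, Ltbp3 and Ltbp4) and 0 were called higher in pericytes. Among all genes tested, 11.2% were called higher in SMCs and 10.6% higher in pericytes, and among the 13349 genes with at least 1 FPKM in at least 4 libraries, which include all 10, both shares were 19.9%. At an unadjusted limma p below 0.05 but not at the q threshold, 3 of the 10 genes passed. Tgfbr3 and Ltbp2 were higher in SMCs, and 1 gene, Tgfb1, was higher in pericytes. No share of all genes is given for this unadjusted threshold. Under the study's own rule (log2 fold change above 2 and q value below 0.05), which 2.66% of genes passed towards SMCs, only Ltbp4 passed. The median log2 fold change of the 10 genes was -1.50, beside 0.02 for all genes tested. In 7 of the 10 genes all SMC libraries lay above all pericyte libraries, as they did for 12.5% of all genes tested and 21.2% of those with at least 1 FPKM in at least 4 libraries. The reverse held for 0 of the 10 and for 12.1% of all genes, and in Tgfb1, Tgfbr1 and Tgfbr2 the groups overlapped. When limma was fitted only to the genes with at least 1 FPKM in at least 4 libraries, it called 7 of the 10 higher in SMCs, beside 22.8% of the genes in that fit. The count was 4 with TPM or median-ratio scaling, 3 without any 1 of pericyte replicates 1, 2 or 3 or SMC replicates 2 or 4, and 2 without SMC replicate 3. In bulk RNA, more cells of a type and more RNA per cell cannot be told apart.

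**Figure D1:**
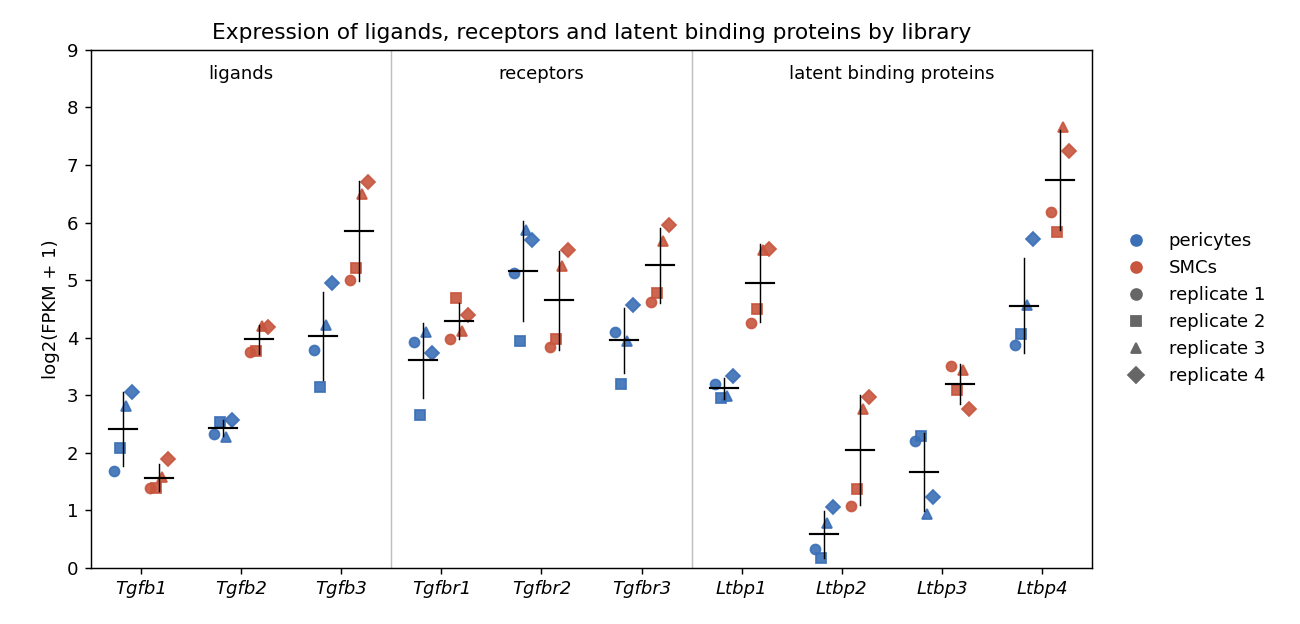
Expression of the 10 genes in each library as log2(FPKM + 1). Blue points are the 4 pericyte libraries and red points the 4 SMC libraries, with symbol shape for the replicate number, and black lines give the mean and 1 SD of each group. The groups do not overlap for 7 genes, and they overlap for Tgfb1, Tgfbr1 and Tgfbr2.

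The groups also differed in markers of other cell types, from lists of 8 to 10 genes each. Of 10 T cell markers, 9 were higher in pericytes, with a summed level of 1649 to 2481 FPKM against 26.1 to 55.3 FPKM in SMCs. All 8 B cell markers were higher in pericytes (849.8 to 2040 FPKM against 10.3 to 33.2 FPKM). Of 10 fibroblast markers, 7 were higher in SMCs and 1 in pericytes (1109.9 to 1959 FPKM in pericytes and 4384 to 5922 FPKM in SMCs). The latter was Dcn, with a listed value of 0 in all SMC libraries, and whether this 0 is a measured level cannot be told. Of 10 endothelial markers, 7 were higher in SMCs (85.9 to 146 FPKM against 315 to 1085.5 FPKM). Macrophage markers were higher in SMCs for 7 of 10, though their sums overlapped (889 to 1813 FPKM in pericytes and 1380 to 2062 FPKM in SMCs). Of 8 platelet and megakaryocyte markers, 2 were higher in SMCs (5.02 to 39.1 FPKM against 48.1 to 131 FPKM), and Gp6 was listed at 0 in all libraries. Skeletal myofibre markers had 1 of 8 higher in pericytes (35.9 to 39.9 FPKM and 35.6 to 54.5 FPKM). Of 10 smooth muscle markers, 0 passed at the adjusted threshold in limma, with 599 to 1902 FPKM summed in pericytes and 1782 to 5753 FPKM in SMCs. Of 10 pericyte markers 1 passed, Rgs5, and it was higher in SMCs (47.5 to 128 FPKM and 108 to 437 FPKM for the whole list). Every gene of the smooth muscle and pericyte lists had a negative log2 fold change, whether called or not. The median was -1.23 for smooth muscle and -1.32 for pericyte markers, beside -1.50 for the 10 TGF-β genes. The part of these other cells in the TGF-β values was not tested.

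**Figure D2:**
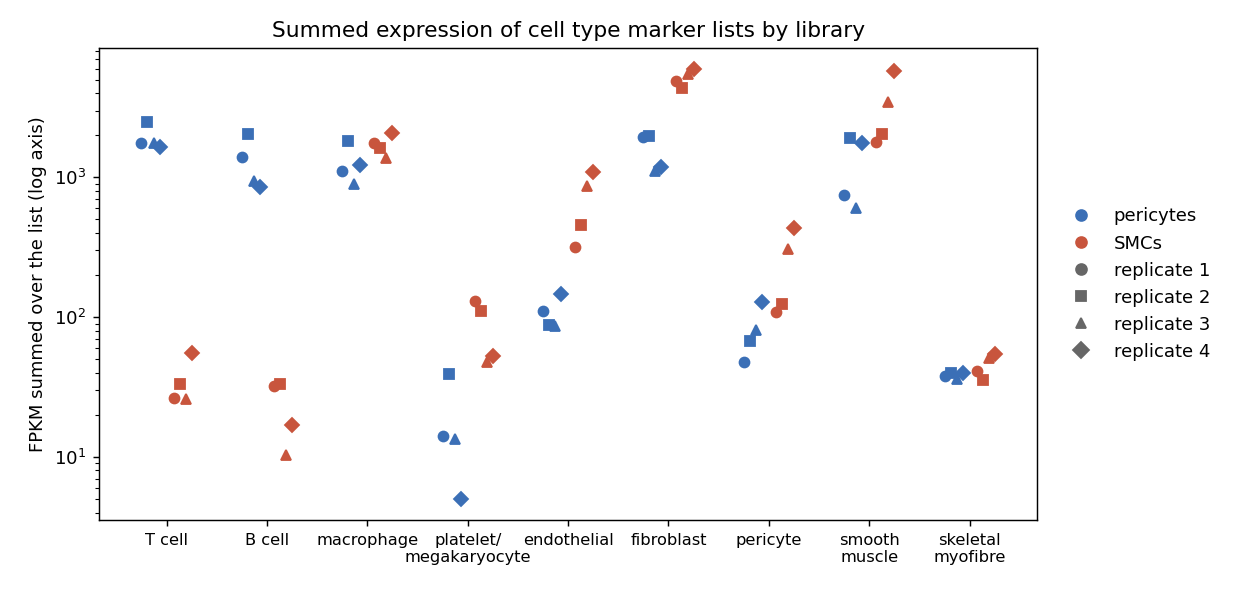
FPKM summed over each list of cell type markers, on a log axis, for each pericyte (blue) and SMC (red) library. T and B cell sums are far higher in pericytes, fibroblast and endothelial sums are higher in every SMC library, and macrophage, smooth muscle, pericyte and myofibre sums overlap.

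Tgfb3 was the ligand gene with the highest level in every library. Its product is widely made by mesenchymal cells. The pericyte libraries held 12.8, 7.83, 17.7 and 30.1 FPKM in replicates 1 to 4, and the SMC libraries held 31.1, 35.9, 89.2 and 103.6 FPKM. The groups did not overlap, although pericyte replicate 4 came close to SMC replicate 1. Mean FPKM was 17.1 ± 9.54 in pericytes against 64.9 ± 36.8 in SMCs (SD, n = 4 each), 3.80 times higher in SMCs. In limma the log2 difference was -1.83 with a standard error of 0.53 (q = 0.0474). This call was close to the threshold. It was not kept with TPM scaling, which gives each library the same sum (q = 0.0501), or with median-ratio scaling (q = 0.0512). It was not kept without pericyte replicates 1, 2 or 3 (q = 0.129, 0.103 and 0.0964) or without SMC replicates 2, 3 or 4 (q = 0.0643, 0.123 and 0.114).

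Tgfb2 encodes the ligand that depends most on the coreceptor betaglycan for binding to the type II receptor. Its pericyte libraries held 4.04, 4.76, 3.86 and 4.96 FPKM and its SMC libraries 12.5, 12.6, 17.5 and 17.1 FPKM. The lowest SMC library was thus well above the highest pericyte library, and the pericyte replicates lay close together. The means were 4.40 ± 0.54 FPKM in pericytes against 14.9 ± 2.75 FPKM in SMCs (SD, n = 4 each), 3.39 times higher in SMCs. Its log2 fold change of -1.55 (standard error 0.14) had the lowest q value of the 10 genes (limma q = 3.2e-04), and the q value stayed between 1.4e-04 and 0.00466 over the 16 alternatives.

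Tgfb1, the ligand made by many leukocytes and by platelets, went the other way in its means. It had 2.20, 3.24, 6.06 and 7.31 FPKM in pericyte replicates 1 to 4 and 1.62, 1.63, 2.00 and 2.72 FPKM in SMC replicates 1 to 4. Pericyte replicate 1 lay below SMC replicate 4, so the groups overlapped, but the pericyte library was the higher at each of the 4 replicate numbers. Mean FPKM was 4.70 ± 2.38 in pericytes against 1.99 ± 0.52 in SMCs (SD, n = 4 each). Its log2 fold change of 0.84 (standard error 0.31, 95% interval 0.11 to 1.58) did not pass adjustment (limma q = 0.107). It passed in 3 of the 16 alternatives, among them without pericyte replicate 1 (q = 0.0407) and with replicates 1 and 2 against 3 and 4 as a covariate (q = 0.0167). No label gives this split, and Tgfb1 itself was higher in replicates 3 and 4 in both groups, so the covariate takes out part of its spread. Of the marker lists given above, 9 of 10 T cell markers and all 8 B cell markers were also higher in pericytes. Within pericyte replicates 1 to 4, T cell sums were 1763, 2481, 1752 and 1649 FPKM and B cell sums 1405, 2040, 948 and 850 FPKM. Both sums were lowest in replicate 4, where Tgfb1 was highest. In SMCs, 7 of 10 macrophage markers and 2 of 8 platelet and megakaryocyte markers (Pf4 and Itga2b) were higher. The other platelet and megakaryocyte markers were not called, and the median log2 fold change of that list was -0.02. The part of these cells in the Tgfb1 values was not tested. The highest q value of Tgfb1 over the alternatives was 0.259, with TPM scaling.

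The makeup of the ligand pool was compared as shares of FPKM within each library, which do not depend on how libraries are scaled to each other. The share of Tgfb1 among the ligand genes was 11.5%, 20.5%, 22.0% and 17.3% in pericyte replicates 1 to 4. In SMC replicates 1 to 4 it was 3.59%, 3.25%, 1.84% and 2.20%. The groups did not overlap, and the means differed by 15.1 percentage points. Tgfb3 supplied most of the pool in both groups, at 49.5% to 71.0% in pericytes and 68.8% to 83.9% in SMCs, and these ranges overlapped. The share of Tgfb2 also overlapped, at 11.7% to 30.1% in pericytes and 13.8% to 27.6% in SMCs. Summed over the ligand genes, FPKM was 15.8 to 42.4 in pericyte libraries and 45.2 to 123 in SMC libraries. These shares were not tested.

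**Figure D3:**
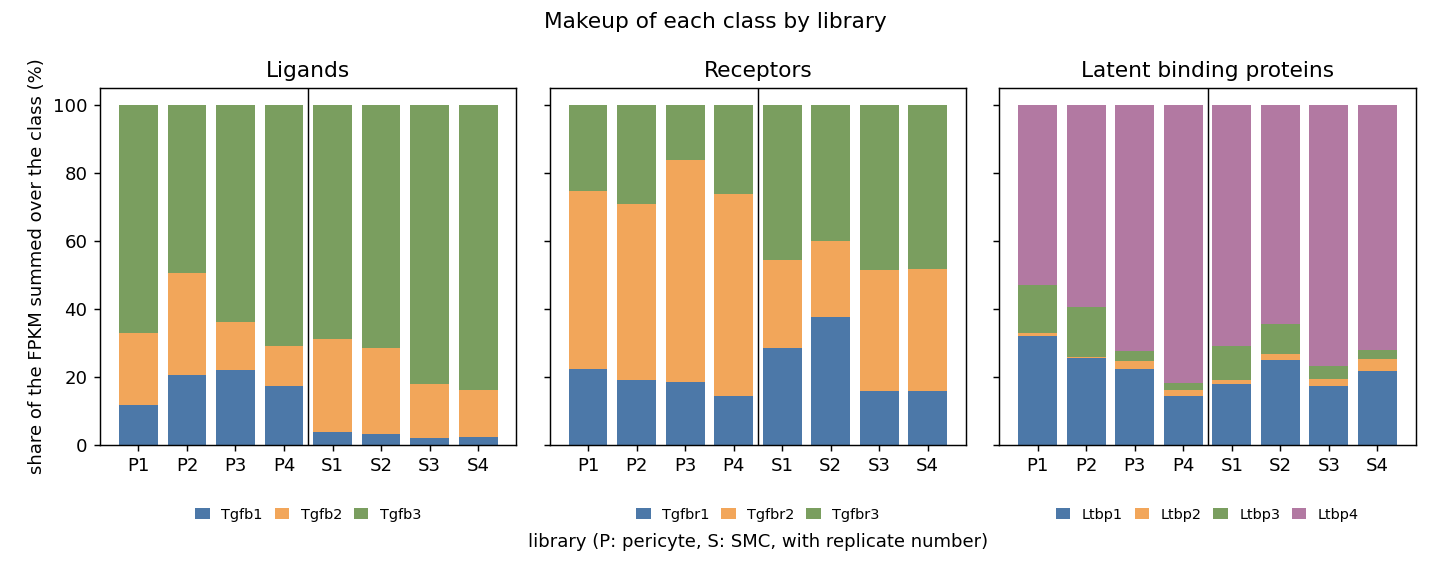
Share of each gene in the FPKM summed over its class, in percent, for each pericyte (P) and SMC (S) library by replicate number. Tgfb1 takes 11.5% to 22.0% of ligand FPKM in pericytes and 1.84% to 3.59% in SMCs, Tgfbr2 takes 51.7% to 65.3% of receptor FPKM in pericytes and 22.4% to 35.9% in SMCs, and Ltbp4 takes most of the latent binding protein FPKM in all 8 libraries.

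Among the receptor genes, Tgfbr2 encodes the type II receptor, the kinase that binds the free ligand first. It was the gene with the highest mean level of the 10 in pericytes, with 33.7, 14.4, 57.7 and 50.8 FPKM in pericyte replicates 1 to 4. Its SMC replicates 1 to 4 had 13.4, 14.7, 36.8 and 45.2 FPKM. The groups overlapped widely, and in both of them replicates 3 and 4 were well above replicates 1 and 2. Mean FPKM was 39.1 ± 19.3 in pericytes against 27.5 ± 15.9 in SMCs (SD, n = 4 each). With a log2 fold change of 0.51 and a 95% interval from -0.80 to 1.82 (limma q = 0.616), sizeable differences in either direction lie within the error. With a library left out the log2 fold change ran from 0.24 (without SMC replicate 1) to 0.91 (without pericyte replicate 2).

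Tgfbr1 encodes the type I receptor, which phosphorylates SMAD2 and SMAD3. It had 14.2, 5.28, 16.2 and 12.3 FPKM in pericyte replicates 1 to 4 and 14.7, 24.8, 16.3 and 19.9 FPKM in SMC replicates 1 to 4. At each replicate number the SMC value was the higher, by little at numbers 1 and 3. Its log2 fold change was -0.69 (standard error 0.33, 95% interval -1.47 to 0.09), and it was not called (limma q = 0.215). Without pericyte replicate 2 the log2 fold change was -0.37.

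Tgfbr3 encodes betaglycan, the coreceptor without kinase activity that presents the ligands, TGF-β2 above all, to the type II receptor. It had 16.2, 8.15, 14.4 and 22.7 FPKM in pericyte replicates 1 to 4 and 23.7, 26.4, 49.99 and 60.8 FPKM in SMC replicates 1 to 4. The groups did not overlap, with pericyte replicate 4 just below SMC replicate 1, and mean FPKM was 2.62 times higher in SMCs. A log2 fold change of -1.30 with a standard error of 0.40 missed the threshold (limma q = 0.0566). Tgfbr3 passed in 5 of the 16 alternatives, among them the fit limited to genes with at least 1 FPKM in at least 4 libraries (q = 0.0184). Others were quantile scaling (q = 0.0315), an intensity trend (q = 0.0443) and the covariate for replicates 1 and 2 against 3 and 4 (q = 0.0101), a split that no label gives. It did not pass with any library left out (q from 0.0523 to 0.143). Nor did it pass with TPM scaling (q = 0.0680), median-ratio scaling (q = 0.0623) or a pseudocount of 0.1 (q = 0.0536).

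Within the receptor genes the makeup differed without overlap between groups. Tgfbr2 held 52.6%, 51.7%, 65.3% and 59.2% of receptor FPKM in pericyte replicates 1 to 4 and 25.8%, 22.4%, 35.7% and 35.9% in SMC replicates 1 to 4. The means differed by 27.3 percentage points, and by 7.97 points when shares of log2(FPKM + 1) were taken. Tgfbr3 held 16.4% to 29.3% in pericytes and 40.1% to 48.5% in SMCs. Tgfbr1 held 14.3% to 22.1% in pericytes and 15.8% to 37.6% in SMCs, which overlapped. The gene with the largest share was therefore Tgfbr2 in every pericyte library and Tgfbr3 in every SMC library. Summed receptor FPKM overlapped, at 27.8 to 88.3 in pericyte libraries and 51.8 to 126 in SMC libraries.

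**Figure D4:**
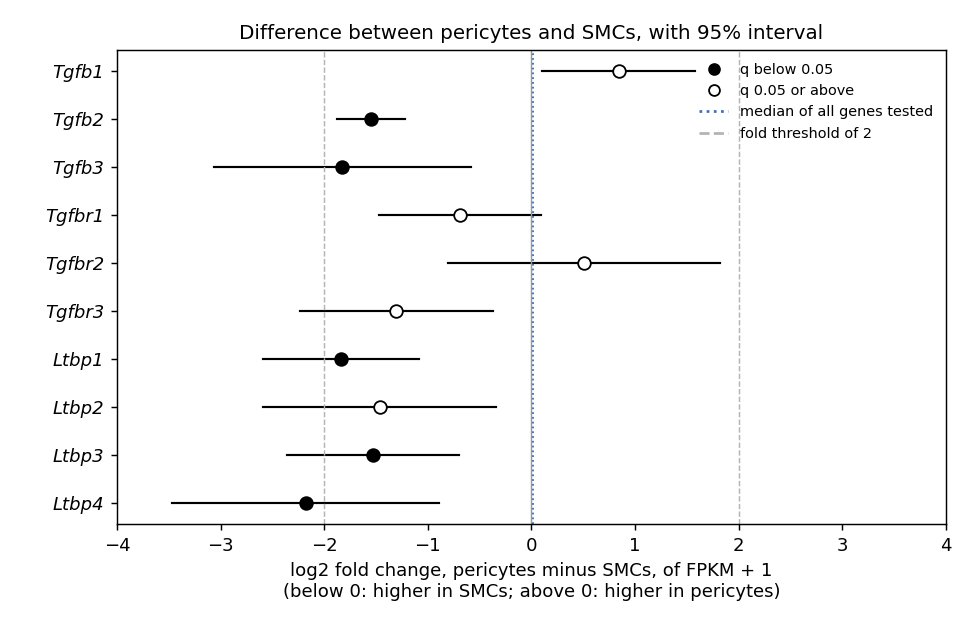
Log2 fold change of each gene, pericytes minus SMCs, on the log2(FPKM + 1) scale, with its 95% interval from limma. Filled points are the 5 genes called at a q value below 0.05, open points the other 5, the dotted line is the median of all genes tested (0.02) and dashed lines mark a log2 fold change of 2 in either direction. The whole interval lies below 0 for the 4 latent binding protein genes, Tgfb2, Tgfb3 and Tgfbr3.

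Ltbp4, whose product is needed for elastic fibre assembly and carries latent TGF-β1, was the gene with the highest level of the 10 in every SMC library. The SMC libraries held 71.9, 55.9, 202.2 and 151 FPKM in replicates 1 to 4, against 13.6, 15.8, 22.7 and 51.6 FPKM in the pericyte libraries. Pericyte replicate 4 came close to SMC replicate 2, and the other pericyte libraries were far lower. The mean was 25.9 ± 17.5 FPKM in pericytes against 120 ± 68.7 FPKM in SMCs (SD, n = 4 each), 4.64 times higher in SMCs. This was a log2 difference of -2.18 with a standard error of 0.55 (limma q = 0.0276). Ltbp4 was not called without pericyte replicates 1, 2 or 3 (q = 0.0872, 0.0695 and 0.0720) or without SMC replicates 3 or 4 (q = 0.0700 and 0.0770).

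Ltbp1 encodes the first known carrier of latent TGF-β in the matrix. It had 8.14, 6.74, 6.93 and 9.09 FPKM in pericyte replicates 1 to 4, a narrow range, and 18.1, 21.5, 45.0 and 45.7 FPKM in SMC replicates 1 to 4. All SMC libraries were clearly above the pericyte libraries. Mean FPKM was 7.73 ± 1.10 in pericytes against 32.6 ± 14.8 in SMCs (SD, n = 4 each), 4.21 times higher in SMCs. The limma log2 difference of -1.84 with a standard error of 0.32 (q = 0.00630) was called in all 16 alternatives, with q values from 0.00130 to 0.0246. The gene has a long and a short form, which start at different promoters, and gene FPKM does not tell them apart.

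Ltbp3 encodes a further carrier of latent TGF-β, known for its part in bone and in the aortic wall. It had 3.59, 3.92, 0.902 and 1.36 FPKM in pericyte replicates 1 to 4 and 10.4, 7.47, 9.78 and 5.74 FPKM in SMC replicates 1 to 4. The groups did not overlap, and here pericyte replicates 3 and 4 were the low ones, unlike in Ltbp2 and Ltbp4. Mean FPKM was 2.44 ± 1.53 in pericytes against 8.34 ± 2.14 in SMCs (SD, n = 4 each), a log2 difference of -1.53 with a standard error of 0.35 (limma q = 0.0199). It was not called without pericyte replicate 4 (q = 0.0547) or without SMC replicates 1, 2 or 3 (q = 0.0620, 0.0517 and 0.0599).

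Ltbp2, whose product binds fibrillin but not latent TGF-β, was the least expressed LTBP gene in all 8 libraries save SMC replicate 4. Its pericyte libraries had 0.254, 0.124, 0.720 and 1.08 FPKM and its SMC libraries 1.11, 1.59, 5.79 and 6.87 FPKM. The groups were parted by a narrow margin, and the SMC libraries themselves fell into a low and a high pair. With a log2 fold change of -1.47 and a standard error of 0.48 the gene was not called (limma q = 0.0706). It passed in 5 of the 16 alternatives, among them the filter at 1 FPKM in at least 4 libraries (q = 0.0214) and a pseudocount of 0.1 (log2 fold change -2.53, q = 0.0396). Others were the covariate for replicates 1 and 2 against 3 and 4 (q = 0.00366), a split that no label gives, and the fit without SMC replicate 1 (q = 0.0419). It did not pass with any other library left out (q up to 0.175). Nor did it pass with TPM, median-ratio or quantile scaling or an intensity trend (q from 0.0572 to 0.0745). The gene D030025P21Rik on the other strand shares 9.33% of the exon bases of Ltbp2, and had 0.0588 to 0.547 FPKM in pericytes and 0.267 to 1.17 FPKM in SMCs. It was not stated whether reads were counted by strand.

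The summed level of the LTBP genes did not overlap between groups, while its makeup did. Summed FPKM was 25.6, 26.6, 31.2 and 63.1 in pericyte replicates 1 to 4 and 101, 86.5, 263 and 209.6 in SMC replicates 1 to 4. Ltbp4 held 53.2% to 81.7% of the pool in pericytes and 64.7% to 77.0% in SMCs. Ltbp1 held 14.4% to 31.8% in pericytes and 17.1% to 24.9% in SMCs, and Ltbp3 held 2.15% to 14.7% and 2.74% to 10.2%.

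In order of mean level, pericytes had Tgfbr2, Ltbp4, Tgfb3, Tgfbr3, Tgfbr1, Ltbp1, Tgfb1, Tgfb2, Ltbp3 and Ltbp2, from 39.1 down to 0.544 FPKM. Neighbours in this order were not parted in every library between Tgfbr2 and Ltbp4, Tgfb3 and Tgfbr3, Tgfbr3 and Tgfbr1, Tgfbr1 and Ltbp1, or Tgfb1 and Tgfb2. In SMCs the order was Ltbp4, Tgfb3, Tgfbr3, Ltbp1, Tgfbr2, Tgfbr1, Tgfb2, Ltbp3, Ltbp2 and Tgfb1, from 120 down to 1.99 FPKM. Neighbours in this order were not parted in every library between Tgfbr2 and Tgfbr1, Tgfbr1 and Tgfb2, Ltbp3 and Ltbp2, or Ltbp2 and Tgfb1.

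Replicates with the numbers 3 and 4 were often the high ones. In 5 of the 10 genes (Tgfb1, Tgfb3, Tgfbr2, Ltbp2 and Ltbp4) both libraries numbered 3 and 4 were above both libraries numbered 1 and 2 in pericytes and also in SMCs, as in 8.46% of all genes tested and 15.6% of those with at least 1 FPKM in at least 4 libraries. Summed pericyte markers had the same order, at 47.5, 67.5, 81.2 and 128 FPKM in pericyte replicates 1 to 4 and 108, 124, 308 and 437 FPKM in SMC replicates 1 to 4. Summed endothelial markers had it in SMCs, at 315, 457, 862 and 1085.5 FPKM, and not in pericytes. Smooth muscle, fibroblast and skeletal myofibre sums also had it in SMCs and not in pericytes. B cell sums had the reverse order in both groups, at 1405, 2040, 948 and 850 FPKM in pericyte replicates 1 to 4 and 31.9, 33.2, 10.3 and 16.9 FPKM in SMC replicates 1 to 4. Platelet and megakaryocyte sums also had the reverse order in both groups. The part of these cell types in the values of the 5 genes was not tested. Without pericyte replicate 2, the library with the high FPKM sum, 3 genes were called higher in SMCs (Tgfb2, Ltbp1 and Ltbp3).

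Other genes of the pathway were taken from 5 lists with 81 genes in all, of which 49 were called higher in SMCs, 7 higher in pericytes and 25 were not called, against 11.2% and 10.6% of all genes called in these directions. The list of genes that act in releasing latent TGF-β had 7 of 16 genes higher in SMCs and 2 higher in pericytes, with a median log2 fold change of -1.37. Mmp2, a matrix metalloproteinase that can cleave the latent complex, had 575 ± 144 FPKM in SMCs against 70.4 ± 33.7 FPKM in pericytes (SD, n = 4 each), a log2 difference of -3.08 (limma q = 7.1e-04). Mmp14, which activates pro-MMP2 at the cell surface, had a log2 fold change of -2.37 (limma q = 0.00294). The plasminogen activator genes Plat and Plau, whose plasmin can release the ligand, had log2 fold changes of -2.70 (limma q = 1.9e-04) and -1.62 (limma q = 0.00130).

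Of the genes in this list, Lrrc33 and Furin were higher in pericytes. Lrrc33, which tethers latent TGF-β1 to the surface of myeloid cells, had 80.9 ± 14.8 FPKM in pericytes against 26.8 ± 6.13 FPKM in SMCs (SD, n = 4 each), a log2 difference of 1.56 (limma q = 0.00107). Of 10 macrophage markers, 7 were higher in SMCs and 0 in pericytes, while their sums overlapped between groups, as given above. The part of myeloid cells in the Lrrc33 values was not tested. Furin, the protease that cuts at the basic codons shown above, had 10.1 ± 1.15 FPKM in pericytes against 4.91 ± 1.54 FPKM in SMCs (SD, n = 4 each), a log2 difference of 0.94 (limma q = 0.0131, and 0.0726 with TPM scaling). The list holds 6 integrin chains, of which the β chains Itgb1 (log2 fold change -1.60, limma q = 0.00908) and Itgb5 (log2 fold change -1.30, limma q = 0.0458) were higher in SMCs. Itgb5 had 4.33 to 14.2 FPKM in pericytes and 16.3 to 32.4 FPKM in SMCs. The other 4 were not called. Of these, Itgav, the αv chain, had 6.68 to 23.8 FPKM in pericytes and 11.9 to 26.2 FPKM in SMCs, Itgb3 had 1.73 to 10.1 FPKM and 1.17 to 3.58 FPKM, Itgb8 had 0.928 to 2.96 FPKM and 0.974 to 2.10 FPKM, and Itgb6 stayed below 1 FPKM in all libraries.

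Of 8 other receptors and coreceptors, 7 were higher in SMCs and 0 in pericytes, with a median log2 fold change of -2.05. The count was 4 without pericyte replicates 1 or 3 or without SMC replicate 3. Eng, which encodes the endothelial coreceptor endoglin, had 103 ± 80.8 FPKM in SMCs against 13.6 ± 6.62 FPKM in pericytes (SD, n = 4 each), a log2 difference of -2.55 (limma q = 0.0369). Nrp1, a coreceptor of VEGF and semaphorins that also binds TGF-β1, had a log2 fold change of -2.55 (limma q = 0.00117). Vasn, whose product can trap TGF-β, had one of -2.52 (limma q = 5.8e-04), and Cd109, a membrane-anchored TGF-β coreceptor, one of -2.07 (limma q = 0.00238). Eng was not called when any 1 of the pericyte libraries or SMC replicates 3 or 4 was left out, with a limma q value of up to 0.0979. The summed endothelial markers given above moved in the same direction as Eng, and their part was not tested.

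Of 16 genes of SMAD signalling, 2 were higher in SMCs, 3 were higher in pericytes and 11 were not called, counts near the shares of all genes called (11.2% and 10.6%). Without pericyte replicate 3, 1 was higher in SMCs. With replicates 1 and 2 against 3 and 4 as a covariate, 5 were higher in pericytes. The median log2 fold change was 0.18. Tgif1, a corepressor that binds SMAD2, had 357 ± 36.4 FPKM in pericytes against 145 ± 20.4 FPKM in SMCs (SD, n = 4 each), a log2 difference of 1.30 (limma q = 4.3e-04). Smad7, the inhibitory SMAD that TGF-β itself induces, had 3.35 ± 0.60 FPKM in pericytes against 1.26 ± 0.33 FPKM in SMCs (SD, n = 4 each), a log2 difference of 0.94 (limma q = 0.00292). Smad2, which carries the signal of the type I receptor, had a log2 fold change of 0.74 (limma q = 0.0143, and not called with TPM or quantile scaling or a pseudocount of 0.1, at q values of up to 0.238). Smad6, the inhibitory SMAD of the BMP branch, was low in both groups and higher in SMCs (0.231 ± 0.147 and 1.38 ± 0.30 FPKM, SD, n = 4, limma q = 0.00151). Fkbp1a, which encodes the FKBP12 protein that holds the type I receptor inactive, was also higher in SMCs (log2 fold change -0.93, limma q = 0.0159), but not without pericyte replicates 1 or 3 (limma q up to 0.0536).

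Of 26 genes known to respond to TGF-β in mesenchymal cells, 19 were higher in SMCs, 1 was higher in pericytes and 6 were not called, with a median log2 fold change of -2.01. Many of them are also used by fibroblasts, and Col1a1 and Col1a2 stand in both lists. The largest differences were in Timp1, an inhibitor of metalloproteinases (log2 fold change -3.71, limma q = 0.0261), Postn, the matricellular protein periostin (-3.57, limma q = 0.0108), Col3a1 (-3.51, limma q = 6.2e-04) and Col1a1 (-3.48, limma q = 0.00502), both fibrillar collagen chains. Timp1 lost its call without pericyte replicates 1, 3 or 4 or SMC replicates 1 or 2 (limma q up to 0.0780). Junb, an early response transcription factor, was the 1 gene higher in pericytes (log2 fold change 0.68, limma q = 0.0494), and it was not called in 11 of the 16 alternatives. The contractile gene Acta2, which TGF-β is known to raise in mural cells, had 330 to 1258 FPKM in pericytes and 1158 to 3291 FPKM in SMCs and was not called (limma q = 0.0979).

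All 15 microfibril and matrix partners of the LTBPs were called, 14 of them higher in SMCs, with a median log2 fold change of -2.80. Mfap4 (-3.87, limma q = 0.0173), Mfap5 (-3.86, limma q = 5.3e-04) and Mfap2 (-3.41, limma q = 0.00889), which encode proteins of microfibrils and elastic fibres, and Bgn (-3.40, limma q = 6.4e-05), the proteoglycan biglycan that binds TGF-β, had the largest log2 fold changes towards SMCs. Mfap4 lost its call without SMC replicates 1 or 2 (limma q up to 0.0552). The exception was Dcn, the related proteoglycan decorin, with 509 to 1165 FPKM in pericytes and a value listed at 0 in each SMC library, so that no fold is given. In the same SMC libraries the fibroblast markers Lum and Col1a2 had 1131 to 1971 FPKM and 579 to 1468 FPKM. Whether the listed 0 means no Dcn RNA or a value that was not computed cannot be told, and the call of Dcn rests on it. Dcn also stands in the fibroblast list. Of the 10 fibroblast markers, 7 were higher in SMCs and 1 in pericytes, with a median log2 fold change of -3.17. The part of fibroblasts in the values of the microfibril and matrix partners was not tested.

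**Figure D5:**
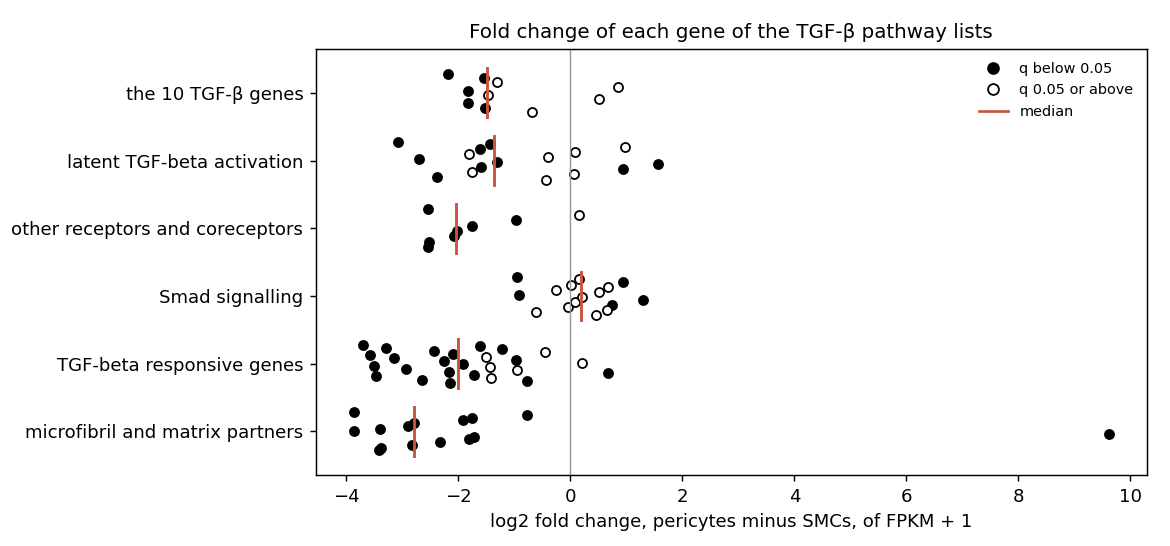
Log2 fold change, pericytes minus SMCs, of each of the 10 genes and of each gene of the 5 other pathway lists. Each point is 1 gene, filled where the q value was below 0.05, and red lines are medians. The point at the far right is Dcn, whose place depends on the pseudocount because its SMC values are listed at 0. Medians of 4 of the 5 lists lie between -2.80 and -1.37, and that of the SMAD signalling list is 0.18.

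The genes whose pattern over the 8 libraries was most like that of Tgfb2 were sought among 13206 genes with a mean log2(FPKM + 1) of at least 1, by Pearson correlation. They were Dram2 (r = 0.998), Darc (0.995), Ndrg4 (0.994), Tmem88 (0.994) and Ntrk2 (0.994), all higher in SMCs. Darc, an endothelial chemokine receptor of venules, had 2.92 to 7.61 FPKM in pericytes and 145 to 340 FPKM in SMCs. For Tgfb1, the gene of lowest q value on the pericyte side, they were Il1b (r = 0.989), Mfsd6 (0.985), Rltpr (0.982), Havcr2 (0.978) and Clec7a (0.977). Il1b, an inflammatory cytokine of myeloid cells, had 73.9 to 430 FPKM in pericytes and 51.2 to 81.0 FPKM in SMCs, and Clec7a, a receptor of myeloid cells for fungal glucans, had 18.7 to 160 FPKM and 12.8 to 28.6 FPKM. Of the 10 macrophage markers given above, 7 were higher in SMCs and 0 in pericytes. The correlations describe 8 libraries that fall into 2 groups, and they were not tested.

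Promoter sequences are shown for Tgfb1, the ligand gene with the higher mean in pericytes, and Tgfb2, the ligand gene of lowest q value. The RefSeq table for GRCm38.p6 held windows from 250 bases before to 50 after the start for 8 of the 10 genes, and none for Tgfb3 and Tgfbr3. The final 100 bases before the start are given 5′ to 3′ on the gene's strand, with GGGCGG or its reverse complement CCGCCC in capitals for Tgfb1 and TATAAA in capitals for Tgfb2.
Tgfb1: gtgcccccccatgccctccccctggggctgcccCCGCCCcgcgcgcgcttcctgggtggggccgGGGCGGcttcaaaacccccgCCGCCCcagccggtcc
Tgfb2: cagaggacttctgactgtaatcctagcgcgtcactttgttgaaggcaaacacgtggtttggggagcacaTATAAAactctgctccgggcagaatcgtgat
The Tgfb1 stretch is chr7:25686902-25687001 (plus strand) and the Tgfb2 stretch chr1:186705990-186706089 (minus strand) of GRCm38.p6, a different build from that of the expression table. On either strand, TATAAA was in 1 of the 12 windows that the 8 genes have, that of Tgfb2, and in 13.6% of all 32851 windows. GGGCGG was in 6 of the 12 windows (of Ltbp2, Ltbp4, Tgfb1 and Tgfbr1) and in 35.7% of all windows. CAGAC, the short sequence that SMAD3 binds, was in 7 of the 12 windows of these genes and in 49.6% of all windows. Each motif was searched on its own, so matches of different motifs may overlap, and a match describes the letters only.

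The genes lie on 8 chromosomes of NCBI Build 37. Tgfb1 (ENSMUSG00000002603) spans chr7:26472021-26490096 on the plus strand and Ltbp4 (ENSMUSG00000040488) chr7:28090155-28122711 on the minus strand. Tgfb2 (ENSMUSG00000039239) spans chr1:188447065-188529871, Tgfbr2 (ENSMUSG00000032440) chr9:115993415-116084383 and Tgfbr3 (ENSMUSG00000029287) chr5:107535589-107718648, all on the minus strand. Ltbp2 (ENSMUSG00000002020) at chr12:86124162-86217482 and Tgfb3 (ENSMUSG00000021253) at chr12:87397694-87419991 are both on the minus strand. Tgfbr1 (ENSMUSG00000007613) at chr4:47366094-47427803, Ltbp1 (ENSMUSG00000001870) at chr17:75404908-75791852 and Ltbp3 (ENSMUSG00000024940) at chr19:5740904-5758532 are on the plus strand.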

How the data were processed

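Reads of 150 bases per end were aligned by the authors with Bowtie2 and TopHat (NCBI Build 37). The deposited values are FPKM per gene, without counts. The program that computed FPKM and its strand setting are not given in the sources used here. Libraries were made with SMART-Seq v4 and Nextera XT kits. Values were taken as log2(FPKM + 1), a pseudocount of 1, and compared by a model of group alone in limma 3.58.1 (R 4.3.3) with Benjamini-Hochberg adjustment over 27414 genes. The 10565 genes listed at 0 in all 8 libraries were left out. In simulated data of this comparison, limma called 18 of 50 genes changed by 1 log2 unit, 28 of 50 by 2 and 41 of 50 by 3, with 9 calls among unchanged genes of the 27414. The changed genes had a mean log2(FPKM + 1) above 2, which Ltbp2 and Tgfb1 did not reach. All were raised in pericytes, and the simulated libraries varied independently, without the shared replicate order seen in the data. Figures and shares were made in Python 3.11.15 with pandas 2.3.3 and matplotlib 3.10.9.

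Positions and coding sequences came from GENCODE version M1 and the NCBI Build 37 genome, which is the build the authors used. Promoters came from RefSeq. The genes named are the 10 chosen by symbol and, of each pathway list, at most 4 called genes per direction, by size of fold change, and those listed at 0 in a whole group. The 5 genes most like Tgfb2 and Tgfb1 were taken by Pearson correlation. The integrin genes and Acta2 were named after their values were seen. The genes and lists were chosen with earlier results of these data known. Alternatives were another pseudocount, a filter on low values, TPM, median-ratio and quantile scaling, a replicate block, replicates 1 and 2 against 3 and 4 as a covariate, an intensity trend and each library left out in turn. The split of replicates 1 and 2 against 3 and 4 is given by no label, and several of the 10 genes show it in their own values. A further item is not reported here.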

Additional observations from a re-analysis of the deposited data

How the results depend on the processing

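All 10 genes kept the direction of their fold change over the 16 alternatives, and 2 of the 5 calls, Tgfb2 and Ltbp1, were kept in every one. The number called higher in SMCs was 5 as reported and 4 to 7 under the other settings, and it ran from 2 to 5 with each library left out, where fewer samples are tested. It was 2 without SMC replicate 3 (Tgfb2 and Ltbp1). The number called higher in pericytes ran from 0 to 1 with each library left out. It was 1 (Tgfb1) with the replicate block (q = 0.0472) and 1 with replicates 1 and 2 against 3 and 4 as a covariate (q = 0.0167). The replicate block also gave 7 genes higher in SMCs, adding Tgfbr3 (q = 0.0252) and Ltbp2 (q = 0.0233). Same-numbered libraries deviated together with correlations across genes of 0.0794, 0.319, 0.437 and 0.474, and since the first is under 0.1 and no source says what a number shares, the numbers were not taken as pairs, and not every library matched its own number best.

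Of the other pathway genes, 48 to 53 were called higher in SMCs under the other settings, and 39 to 44 with a library left out. The count higher in pericytes was 7. It was 4 with TPM scaling, whose cause was not tested, 5 to 10 under the other settings and 6 to 8 with a library left out. Over all genes, TPM scaling moved the calls from 3060 higher in SMCs and 2917 in pericytes to 3734 and 2117. In percentage points, pericytes minus SMCs, the Tgfb1 share of ligands stayed between 13.2 and 17.2, that of Tgfbr2 among receptors was 27.3, or 7.97 with shares of log2(FPKM + 1), and that of Ltbp4 was -4.43, or 5.90 with log2 shares, which compress large values by construction. Read numbers are unknown, so the counting error of values under 1 FPKM, as for Ltbp2 in pericytes, could not be given.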
